A study of Gadus morhua with 47 samples.

Results

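In slices of Atlantic cod liver, 48 of the 22100 transcripts counted met the criteria used here. Their mean was under 1 CPM (1 count per 1000000 mapped segments) without ethynylestradiol (EE2) and at least 1 CPM with it. They were also higher with it in at least 7 of 8 fish. The 40 with the largest difference are described here. They were selected on these CPM values and ranked by the mean over fish of the difference in log2(CPM + 0.1) between slices that received EE2 and slices that did not, and are called transcript 1 to transcript 40 in that order. The difference with EE2 therefore chose the transcripts, and its size is a description of them and not a test. The files give Ensembl cod transcript identifiers, 0 of which matched the gene table used here, so no transcript could be given a gene name. Transcript 1 is ENSGMOT00000004802.1 and transcript 2, which had the highest mean CPM with EE2, is ENSGMOT00000017634.1.

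Precision-cut liver slices are thin living sections of liver kept in culture, so that several treatments can be given to the liver of a single fish. Slices of 8 fish, 5 male and 3 female (fish 3, 6 and 8), received DMSO as the vehicle (8 slices), benzo[a]pyrene (BaP) at 10 nM (7 slices) or 1 µM (7 slices), EE2 at 10 nM (7 slices) or 1 µM (6 slices), or both compounds together at 10 nM each (6 slices) or 1 µM each (6 slices), called Mix. In all, 25 libraries came from slices with EE2 and 22 from slices without it, and only fish 4 and 6 gave a slice to each of the 7 groups. The labels give liver as the tissue, which could not be checked against marker genes without gene names. Slices of the same fish share an animal, and each library is a whole slice, in which more responding cells and more RNA per cell cannot be told apart.

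EE2 is the synthetic estrogen of contraceptive pills. It binds estrogen receptors, transcription factors that bind DNA near their target genes once a ligand is bound. In the liver of egg-laying fish, estrogen from the ovary drives the genes of vitellogenins, the yolk precursors, and of egg envelope proteins; these genes are close to silent in males and juveniles, and their appearance there is widely used as a marker of exposure to estrogens. BaP is a polycyclic hydrocarbon that activates another ligand-dependent transcription factor, the aryl hydrocarbon receptor. Which of the 40 transcripts encode yolk or egg envelope proteins is not given in the sources used here.

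The libraries held 36.6 M to 67.0 M mapped segments (M, 1000000), so that 3 counts were worth 0.0448 to 0.0820 CPM. In 4 libraries the TMM scaling factor was 0.572 to 0.758, against 0.832 to 1.28 in the other 43. These 4, the DMSO slice of fish 2, the 10 nM BaP slice of fish 6, the 1 µM BaP slice of fish 7 and the 1 µM Mix slice of fish 8, were left out when the transcripts were chosen. They remain in the levels and medians of slices, in differences between 2 treatment groups within fish and in the tests below unless stated. Mean CPM, levels per kilobase and differences with EE2 per fish or by sex come from the other 43 libraries.

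Of 7982 transcripts with a mean under 1 CPM without EE2, 121 reached a mean of 1 CPM with it. Of those, 48 also met the requirement on fish. Among the 40, 18 were higher with EE2 in 8 of 8 fish and 22 in 7 of 8. Transcript 40 was the last inside, with 0.821 CPM without and 1.13 CPM with EE2 and a mean log2 difference of 0.33. Transcript 41, just outside, had 0.868 and 1.05 CPM and a difference of 0.27. The differences did not fall evenly from first to last: transcript 15 stood at 1.57 and transcript 16 at 1.05, a step exceeded only after transcripts 2 and 7. The 15 transcripts above that step and the 25 below it are treated apart, a split made after the values were seen.

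**Figure D1:**
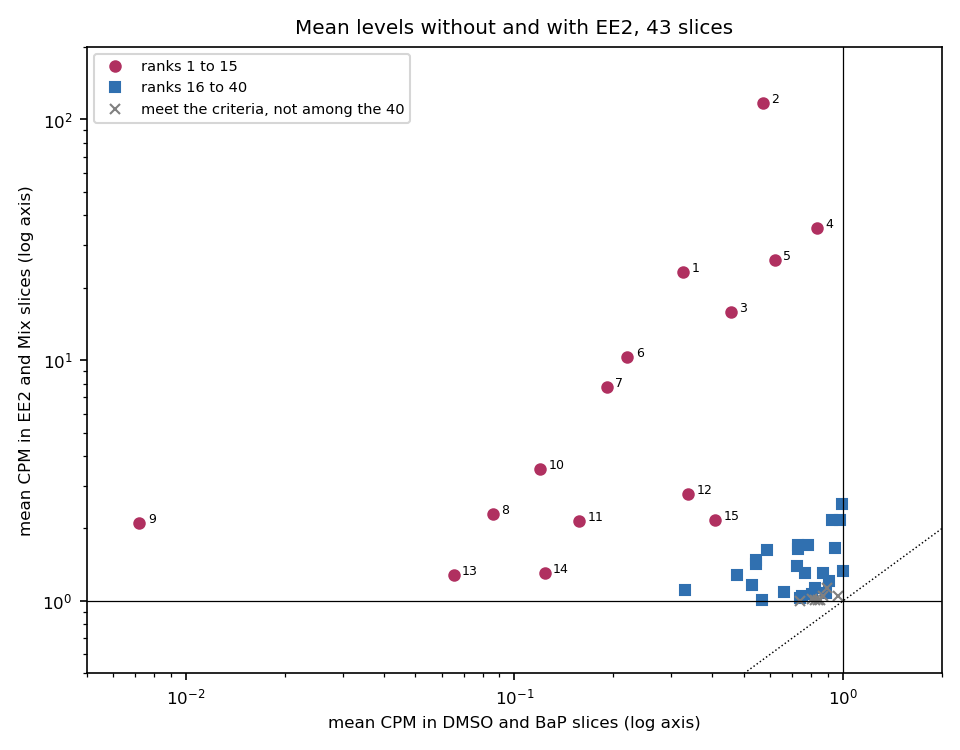
Mean CPM of each transcript without EE2 (DMSO and BaP slices, horizontal log axis) and with EE2 (EE2 and Mix slices, vertical log axis) in the 43 libraries used for the choice. Circles are transcripts 1 to 15, squares transcripts 16 to 40, crosses the 8 that met the criteria outside the 40, solid lines mark 1 CPM and the dotted line equal levels. Transcripts 1 to 7 reached 7.70 to 117 CPM with EE2, while transcripts 16 to 40 lie between 1.01 and 2.52 CPM with EE2.

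Transcripts 1 to 15 went from 0.00723 to 0.831 mean CPM without EE2 to 1.28 to 117 mean CPM with it, with mean log2 differences of 1.57 to 5.94. For transcripts 16 to 40 the same ranges were 0.330 to 0.997 CPM and 1.01 to 2.52 CPM, with differences of 0.33 to 1.05 and a median of 0.66. The words switched on are better suited to the first 15 for the size of their difference. Near-silent suits the first 15 unevenly. Over all 8 DMSO slices transcript 4 had a mean of 1.28 CPM, against 0.337 at 10 nM BaP and 0.490 at 1 µM BaP. The levels of the first 15 without EE2 overlapped those of the other 25, which with EE2 ended close above the limit of 1 CPM.

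Transcripts 1 and 3 were above every slice without EE2 in every slice with it. Transcript 1 lay at 0 CPM in the lowest, 0.112 in the median and 1.87 in the highest of 22 slices without EE2, and at 4.24, 11.9 and 121 CPM in 25 slices with it. Transcript 3 lay at 0.113, 0.415 and 0.901 CPM without EE2 and at 2.72, 14.4 and 30.4 CPM with it. For both, the 2 sets of slices did not overlap, in any fish or over all fish, and all 25 slices with EE2 were above the highest slice without it.

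The 4 groups with EE2 overlapped one another for both transcripts. The medians of transcript 1 were 16.9 CPM at 10 nM EE2, 25.5 at 1 µM EE2, 16.6 at 10 nM Mix and 7.92 at 1 µM Mix, against 0.201 in DMSO, 0.0473 at 10 nM BaP and 0.0896 at 1 µM BaP. Its 2 BaP medians are those of slices with only 3 and 6 counts. The medians of transcript 3 were 13.9, 20.9, 13.2 and 17.2 CPM with EE2 in the same order, against 0.489, 0.310 and 0.354 CPM without it. The groups do not hold the same fish, so medians here and below are not paired comparisons. Within the 5 fish with both 1 µM slices, transcript 1 was higher in Mix than with EE2 alone in 3, fish 8 among them. These log2(CPM + 0.1) differences ran from −1.01 to 0.85, with a median of 0.82. Transcript 1 spread more: within the 1 µM Mix group it went from 5.33 to 121 CPM, the latter in fish 8, whose library is among the 4 with low factors, and the next highest was fish 3 at 90.2 CPM, while transcript 3 went from 8.81 to 30.3 CPM. The coding length was 957 bases for transcript 1 and 1188 bases for transcript 3. The levels per kilobase leave out the 4 libraries with low factors. Per kilobase, the mean level of transcript 1 with EE2 was 24.3 CPM, above 81.7% of all transcripts. Without EE2 it was 0.340 CPM, above 28.3%. Transcript 3 moved from 0.384 to 13.4 CPM per kilobase, from above 29.1% to above 72.2% of all transcripts.

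Transcripts 2, 4, 5, 6 and 7 reached high levels in some fish and stayed low in others. Transcript 2 lay at 0.119 CPM in the lowest, 0.410 in the median and 1.60 in the highest slice without EE2, and at 0.399, 23.8 and 973 CPM with it. The 2 sets overlapped: 20 of 25 slices with EE2 were above every slice without it, and the remaining 5 were within the range seen without EE2. The median of transcript 2 was 31.2 CPM at 10 nM EE2, 61.5 at 1 µM EE2, 31.7 at 10 nM Mix and 10.96 at 1 µM Mix, against 0.571, 0.362 and 0.306 CPM in DMSO, 10 nM BaP and 1 µM BaP. Its mean level per kilobase with EE2, 31.2 CPM, was above 85.0% of all transcripts, and without EE2, at 0.153 CPM, above 23.3%.

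Transcript 4 lay at 0.0161, 0.170 and 4.13 CPM in the lowest, median and highest slice without EE2 and at 0.105, 11.2 and 240 CPM with it, and transcript 5 at 0, 0.0802 and 3.51 CPM against 0.105, 6.10 and 183 CPM. Transcript 6 lay at 0, 0.0732 and 0.912 CPM against 0.0419, 1.69 and 72.8 CPM, and transcript 7 at 0, 0.0293 and 0.854 CPM against 0, 2.70 and 42.3 CPM. For these 4 transcripts 15 to 18 of 25 slices with EE2 were above every slice without it. The lowest slice with EE2 came from fish 5 for each of them, the one given 1 µM EE2, and the highest from fish 8 given 1 µM EE2 for transcripts 4, 5 and 7 and from fish 1 given 1 µM EE2 for transcript 6. The highest slice without EE2 was the DMSO slice of fish 3, a female, for transcripts 2, 4 and 5. Within 7 of 8 fish, all slices with EE2 were above all slices without it for transcripts 2 and 4 to 7.

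**Figure D2:**
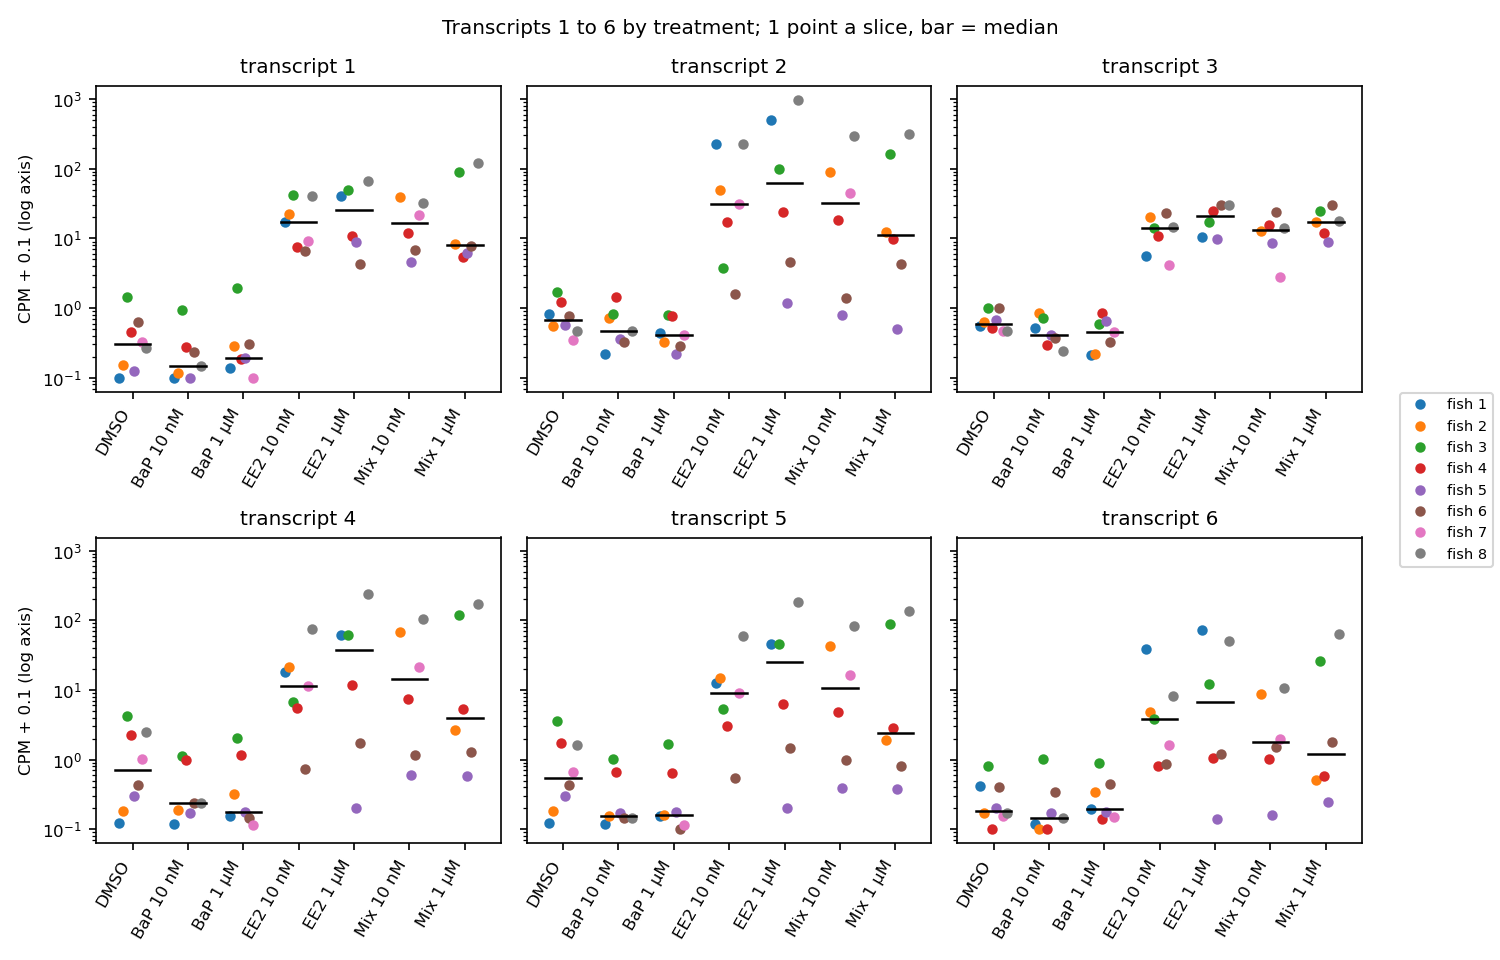
CPM + 0.1 (log axis) of transcripts 1 to 6 in the 7 treatment groups, 1 point a slice, colour by fish, bar at the group's median. In transcripts 1 and 3 the slices with EE2 stand above all others, while in transcripts 2, 4, 5 and 6 the slices of fish 5 and 6 with EE2 lie near or within the range of the slices without it and those of fish 1 and 8 are among the highest.

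Transcripts 8 to 15 reached lower levels, with means of 1.28 to 3.54 CPM with EE2. Transcript 9, with a coding length of 321 bases, was closest to silence: it had 8 counts in all in the 22 slices without EE2, 19 of which were at 0, and 2486 counts in the 25 slices with EE2, 3 of which were at 0. Of the 8 counts, 7 were in slices given 10 nM BaP and 1 in DMSO, and at 1 µM BaP all 7 slices were at 0. With EE2 it lay at 0, 1.03 and 9.20 CPM in the lowest, median and highest slice.

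Transcripts 11 and 13 were at 0 in 14 and 12 of 22 slices without EE2, transcript 8 in 10, and transcript 14 in 7. A single slice stood out for transcript 11, the 10 nM BaP slice of fish 3 at 2.21 CPM, with 136 of its 173 counts without EE2 in the 10 nM BaP group. Because of that slice only 5 of 25 slices with EE2 were above every slice without it for transcript 11, against 15 to 21 for transcripts 8, 9, 10, 12, 13, 14 and 15. Among transcripts 8 to 15, transcripts 12 and 15 had the highest medians without EE2, 0.299 and 0.374 CPM, against 1.93 and 2.42 CPM with EE2. The medians of transcripts 2 and 3 without EE2 were higher still, at 0.410 and 0.415 CPM.

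The number of fish without overlap between slices with and without EE2 was counted in the 43 libraries used for the choice. It was 1 to 6 for each of transcripts 16 to 40, against 4 to 8 for transcripts 1 to 15. Overlap, here and above, was not counted over all transcripts, and the requirement on fish favours separation. The differences of transcripts 16 to 40 in single fish ran from −0.98 to 2.61 on the log2 scale. Transcript 33 was uneven between fish: without EE2 it was at 0 in 11 of 22 slices and reached 3.52 CPM in the DMSO slice of fish 8, and with EE2 it was at 0 in 9 of 25 slices and reached 5.88 CPM in the 10 nM Mix slice of the same fish.

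Counted by slice, 0 to 4 of transcripts 1 to 15 were at 1 CPM or more without EE2 (median 0) and 5 to 14 with it (median 9), so the slices did not overlap in this count. The summed CPM of transcripts 1 to 15 was 1.45 to 13.8 without EE2 and 25.2 to 1589 with it. For transcripts 16 to 40 the numbers at 1 CPM or more were 0 to 10 without EE2 (median 6) and 6 to 22 with it (median 12), which overlapped, as did their sums, 9.26 to 25.7 CPM and 18.1 to 59.8 CPM. The highest sum for transcripts 1 to 15 without EE2 was that of the DMSO slice of fish 3, and the lowest with EE2 that of the 10 nM Mix slice of fish 5. These counts follow from the choice of the transcripts and are given as a description.

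**Figure D3:**
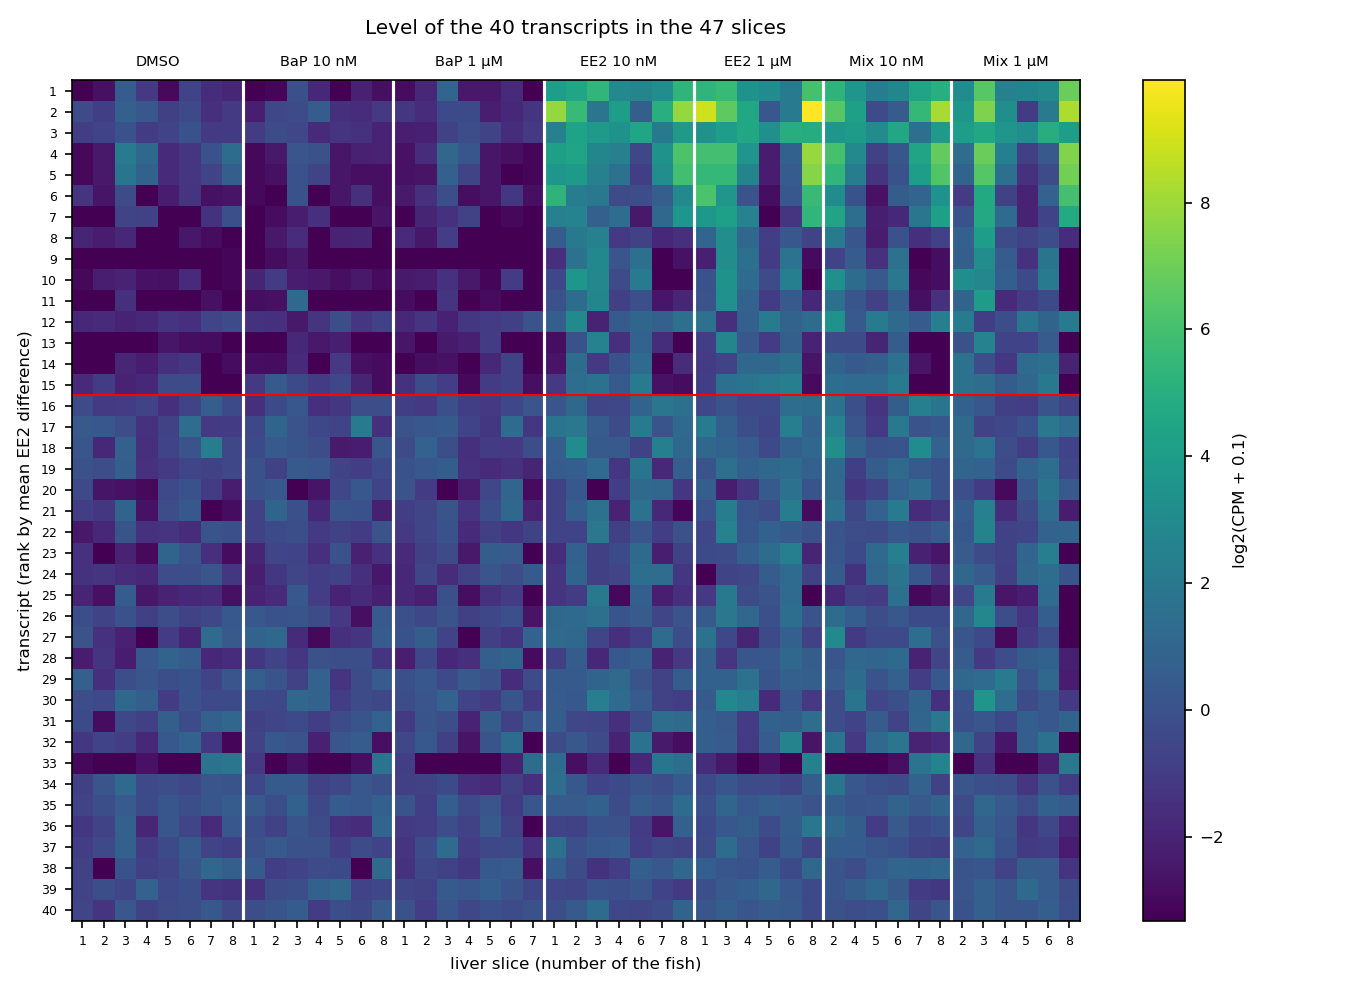
Level of each of the 40 transcripts (rows, by rank) in each of the 47 slices (columns, by group and number of the fish), as log2(CPM + 0.1) on the colour scale; the red line separates transcripts 1 to 15 from 16 to 40. The EE2 and Mix columns are brighter above the line, with dark cells in fish 5 for transcripts 4 to 7 and in fish 7 and 8 for transcripts 9 to 11 and 13 to 15, and differ little from the others below it.

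In edgeR's quasi-likelihood test with fish as a block and Benjamini-Hochberg adjustment over 17824 transcripts, 13 of the 40 passed an adjusted p of 0.05 at 10 nM EE2 against DMSO, where 0.286% of all transcripts did, and 16 at 1 µM EE2 against DMSO, where 0.348% did. The numbers were 14 at 10 nM Mix against 10 nM BaP, beside 0.23% of all, and 15 at 1 µM Mix against 1 µM BaP, beside 0.303%. All of these were higher with EE2. The choice of the transcripts used these contrasts, and nothing is read from the counts beside the background. All 40 passed the filter on low counts, which a transcript could pass through the slices with EE2 alone. Passing in all 4 contrasts were 11 transcripts, numbers 1, 2, 3, 6 to 12 and 14, and 23 of the 40 passed in none. Over all transcripts the share passing in all 4 was not counted and cannot exceed 0.23%, the lowest of the 4. These counts too follow from the choice. Transcripts 4 and 5 had high mean differences, but at 10 nM EE2 against DMSO their log2 fold changes were 3.48 ± 0.87 (SE) and 3.30 ± 0.89, with adjusted p of 0.0883 and 0.173. Without the fish block 4 to 6 members passed in each contrast, and the share of all transcripts without the block is not given here.

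The size of the difference with EE2 varied between fish, and not in the same way for all transcripts. Each difference averages the slices that a fish gave, and these were not the same treatments in every fish. Fish 1 gave no Mix slice, fish 7 no slice at 1 µM EE2 and fish 5 no slice at 10 nM EE2 alone. With its 1 µM BaP slice left out, fish 7 had only its DMSO slice without EE2. The part of this in the order of the fish was not tested. Transcript 3 kept within 2.84 (fish 7) and 5.75 (fish 8) on the log2 scale, and transcript 1 within 3.82 (fish 6) and 7.88 (fish 1). Transcript 2 ranged from 1.13 in fish 5 and 2.47 in fish 6 to 9.61 in fish 1 and 9.75 in fish 8. Transcript 6 ranged from −0.03 in fish 5 to 7.97 in fish 1. For all 5 of transcripts 2 and 4 to 7 the highest differences were those of fish 1 and 8 and the lowest those of fish 5 and 6.

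Transcripts 8 to 15 had another order of fish. In 6 of these 8 the lowest differences were those of fish 7 and 8, as for transcript 9 with 0 in fish 7 and 0.39 in fish 8, against 6.10 in fish 3 and 4.99 in fish 6. Transcript 10 was −0.15 in fish 8 and 0.14 in fish 7, against 5.04 in fish 2. Fish 8 thus had the highest difference of the 8 fish for transcripts 2, 3 and 5 and the lowest for transcripts 10 and 15. The median difference of transcripts 8 to 15 was 0.34 in fish 7 and 0.41 in fish 8, and 1.86 to 4.31 in the other 6. Fish 7 and 8 were the heaviest, at 820 g and 635 g, against 346 g to 565 g for the others. The parts of body weight and of the unlike treatments given to each fish in this difference were not tested.

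**Figure D4:**
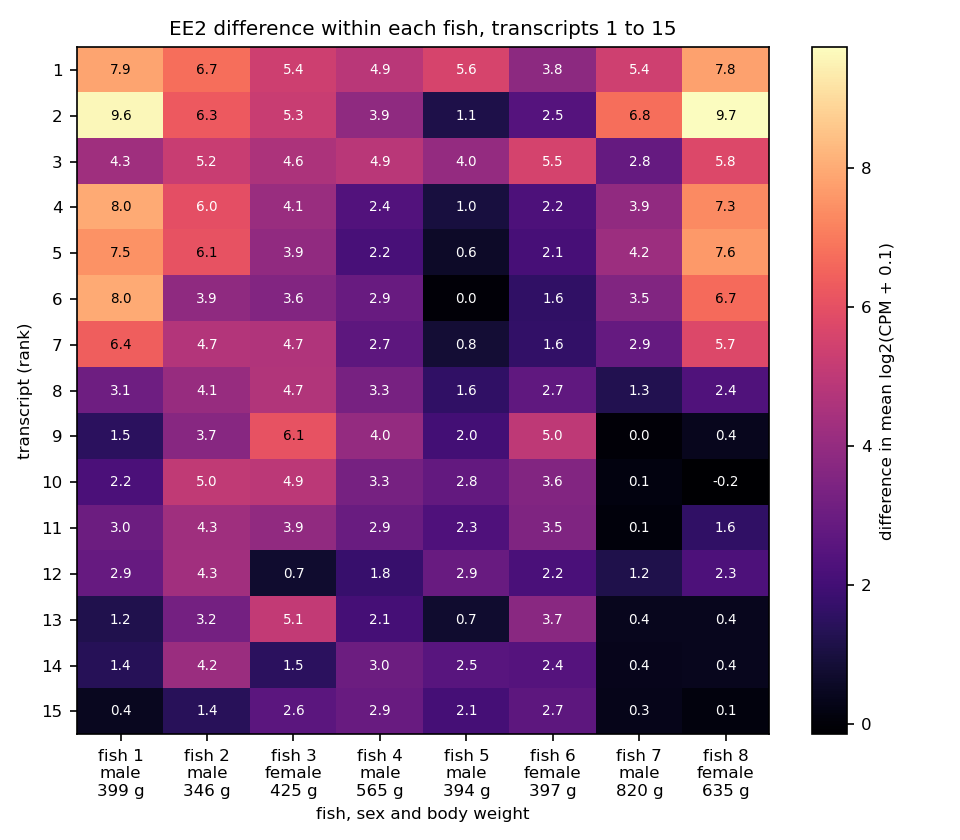
Difference in mean log2(CPM + 0.1) between slices with and without EE2 in each fish (columns, with sex and body weight) for transcripts 1 to 15 (rows); numbers in the cells and the colour give the difference. Fish 1 and 8 are highest for transcripts 2 and 4 to 7, fish 5 and 6 lowest there, and fish 7 and 8 lowest for transcripts 9, 10, 11, 13, 14 and 15.

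A test of whether the change with EE2 was the same in all 8 fish was added after these values were seen, with the spread between slices of the same fish as the error, and since at least 7 of 8 fish had to be higher it is in part bound by the choice. By edgeR's quasi-likelihood test with Benjamini-Hochberg adjustment, 4 of the 40 passed, where 0.107% of all transcripts did. They were transcripts 2 (adjusted p = 0.000176), 4 (0.00814), 5 (0.00270) and 6 (0.0215), which were higher with EE2 in 8, 8, 8 and 7 of 8 fish. At an unadjusted p under 0.05 it was 18 of 40, beside 2.78% of all. DESeq2 called 10 of the 40. Shares of all transcripts are not given here for DESeq2 or for the fits that follow, so those counts have no background. Without the 4 libraries with low scaling factors 2 passed, with transcript 4 at an adjusted p of 0.0635 and transcript 6 at 0.103. Without fish 1, 2 passed, with transcript 4 at 0.182 and transcript 6 at 0.302, and without fish 4, 2 passed, with transcript 4 at 0.205 and transcript 5 at 0.0919. Transcript 6 also lost its call without fish 3 (0.0914), fish 5 (0.284) or fish 6 (0.4995).

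None of the 40 passed the test of dose, 1 µM against 10 nM, with EE2 alone, in Mix or over both. In Mix the dose of BaP rose from 10 nM to 1 µM together with that of EE2. The dose values in Mix and over both therefore do not separate the 2 compounds. With EE2 alone, edgeR and DESeq2 called 0 of the 40, beside 0% of all transcripts in edgeR, and 2 had an unadjusted edgeR p under 0.05, beside 1.34% of all. The median log2 fold change of the 40 was 0.29, with 30 above 0, and that of all transcripts was 0.00. Within the 5 fish that had both slices, transcripts 2 to 8 were higher at 1 µM in 5 of 5. These differences do not use TMM factors. On the same scale the median over all transcripts was 0.01, 0.20, 0.09, 0.16 and 0 in fish 1, 3, 4, 6 and 8. The share of all transcripts higher in 5 of 5 was not counted. The difference of transcript 4 was 1.10 to 3.22 on the log2(CPM + 0.1) scale in these fish, and that of transcript 3 was 0.29 to 1.20. Over these 5 fish the mean difference was 1.80 ± 0.84 (SD) for transcript 4, 1.76 ± 0.95 for transcript 7 and 0.77 ± 0.40 for transcript 3. In the fit, transcript 4 had a log2 fold change of 1.07 ± 0.80 (SE), transcript 7 of 1.36 ± 0.64 and transcript 3 of 0.50 ± 0.36. The fit also holds fish without both slices and takes the change with EE2 as the same in every fish. Its values and SEs are therefore not those of a paired comparison within these 5 fish.

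In Mix, edgeR and DESeq2 called 0 of the 40, beside 0.0337% of all transcripts in edgeR, and 5 had an unadjusted p under 0.05, beside 8.01% of all. The median was 0.06, with 22 of 40 above 0. Transcript 4 was higher at 1 µM in 2 of 5 fish and transcript 5 in 1 of 5, with a log2 difference of −4.65 for transcript 4 in the lowest fish. Without TMM factors, the median over all transcripts was −0.76 in fish 8, whose 1 µM library has a low factor. In the other fish it was −0.08 to 0. Over both, edgeR and DESeq2 called 0 of the 40, beside 0.00561% of all, and 4 had an unadjusted p under 0.05, beside 1.41%. Transcript 1 had a log2 fold change of 0.38 ± 0.45 (SE), which was −0.02 without the 4 libraries and −0.19 without fish 8. Transcript 2 had 0.72 ± 0.68, transcript 3 had 0.58 ± 0.26 with an unadjusted p of 0.0288, and transcript 7 had 0.88 ± 0.53. Transcripts 4, 5 and 6 had 0.52 ± 0.64, 0.47 ± 0.65 and 0.80 ± 0.67, and without fish 8 they had −0.05, −0.15 and −0.15. A change with dose of 1 on the log2 scale lay within 2 SE of the estimate for each of transcripts 1 to 7.

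None of the 40 passed for BaP beside EE2. At 10 nM, Mix against EE2, edgeR and DESeq2 called 0 of the 40, beside 0% of all in edgeR, with 3 at an unadjusted p under 0.05, beside 2.56% of all. The median log2 fold change was 0.15, with 23 above 0. Transcripts 4 to 8 were higher in Mix in 5 of 5 fish, while transcripts 3 and 9 were in 2 of 5 and transcript 13 in 1 of 5. Transcripts 4 and 5 were higher by 0.44 to 1.64 and 0.45 to 1.51 on the log2(CPM + 0.1) scale. In the fit they were higher by 0.93 ± 0.77 (SE) and 0.92 ± 0.77. Without TMM factors, the median log2(CPM + 0.1) difference over all transcripts was 0 to 0.22 in these fish. The share of all transcripts higher in 5 of 5 was not counted. At 1 µM, the tools called 0 of the 40, beside 0.0337% of all, with 2 at an unadjusted p under 0.05, beside 4.46%. The median was −0.20 with 15 above 0. Transcripts 4 and 5 were higher in Mix in 2 of 5 fish at this dose, with −0.17 ± 0.83 and −0.25 ± 0.83 in the fit. In fish 8, whose 1 µM Mix library has a low scaling factor, they differed by −0.47 and −0.43 without TMM factors. The median over all transcripts there was −0.72, against −0.10 to 0 in the other fish. Transcript 1 had 0.27 ± 0.62, transcript 2 had −0.68 ± 0.88 and transcript 3 had −0.02 ± 0.36. With SEs of this size the estimates do not show that EE2 acted alike with and without BaP.

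None of the 40 passed for BaP without EE2. At 10 nM against DMSO, edgeR and DESeq2 called 0 of the 40, beside 0% of all in edgeR, with 3 at an unadjusted p under 0.05, beside 1.58%. Those 3 were transcripts 5 (−2.27 ± 1.06, SE, on the log2 scale), 7 (−2.16 ± 0.94) and 11 (1.88 ± 0.80), and transcript 11 rests on the slice of fish 3 named above. Transcripts 1 and 5 were higher with 10 nM BaP than with DMSO in 0 of 7 fish and transcripts 3, 4, 6 and 7 in 1 of 7. Transcripts 12 and 15 were higher in 5 of 7. Pairs at equal levels count as not higher. Several of these pairs were near the floor. Transcript 5 had 1 count in either slice of fish 1, 3 against 5 in fish 2 and 3 against 8 in fish 5. Fish 2 and 6 each entered with a library with a low scaling factor. Without TMM factors, the median log2(CPM + 0.1) difference over all transcripts was 0.56 in fish 2 and −0.51 in fish 6. How many of all transcripts were as rarely higher was not counted. At 1 µM BaP, 0 of the 40 were called by edgeR or DESeq2, beside 0.0673% of all in edgeR, with 2 at an unadjusted p under 0.05, beside 6.94%. Those 2 were transcripts 13 (2.32 ± 1.09) and 34 (−1.24 ± 0.33, adjusted p 0.252), which differ in sign. Transcript 4 had −1.18 ± 0.94, transcript 5 had −1.51 ± 1.00 and transcript 2 had −1.01 ± 1.08. The medians of the 40 were 0.10 at 10 nM and −0.07 at 1 µM, with 25 and 19 above 0. The DMSO slices are shared by both comparisons.

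Whether EE2 changed the transcripts by the same factor with and without BaP was tested as an interaction. At 10 nM edgeR and DESeq2 called 0 of the 40, beside 0% of all in edgeR, and 4 had an unadjusted p under 0.05, beside 1.68%. They were transcripts 4 (2.94 ± 1.28), 5 (3.18 ± 1.32), 7 (3.18 ± 1.14) and, with the opposite sign, 9 (−2.55 ± 1.12), each the log2 change with EE2 in BaP slices minus that in slices without BaP. Transcripts 4, 5 and 7 had fitted values below 0 at 10 nM BaP against DMSO, and that group enters both values. At 1 µM the count was 0 with both tools, beside 0% of all in edgeR, and 2 at an unadjusted p under 0.05, beside 2.47%, transcripts 13 (−2.94 ± 1.31) and 34 (1.02 ± 0.48).

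**Figure D5:**
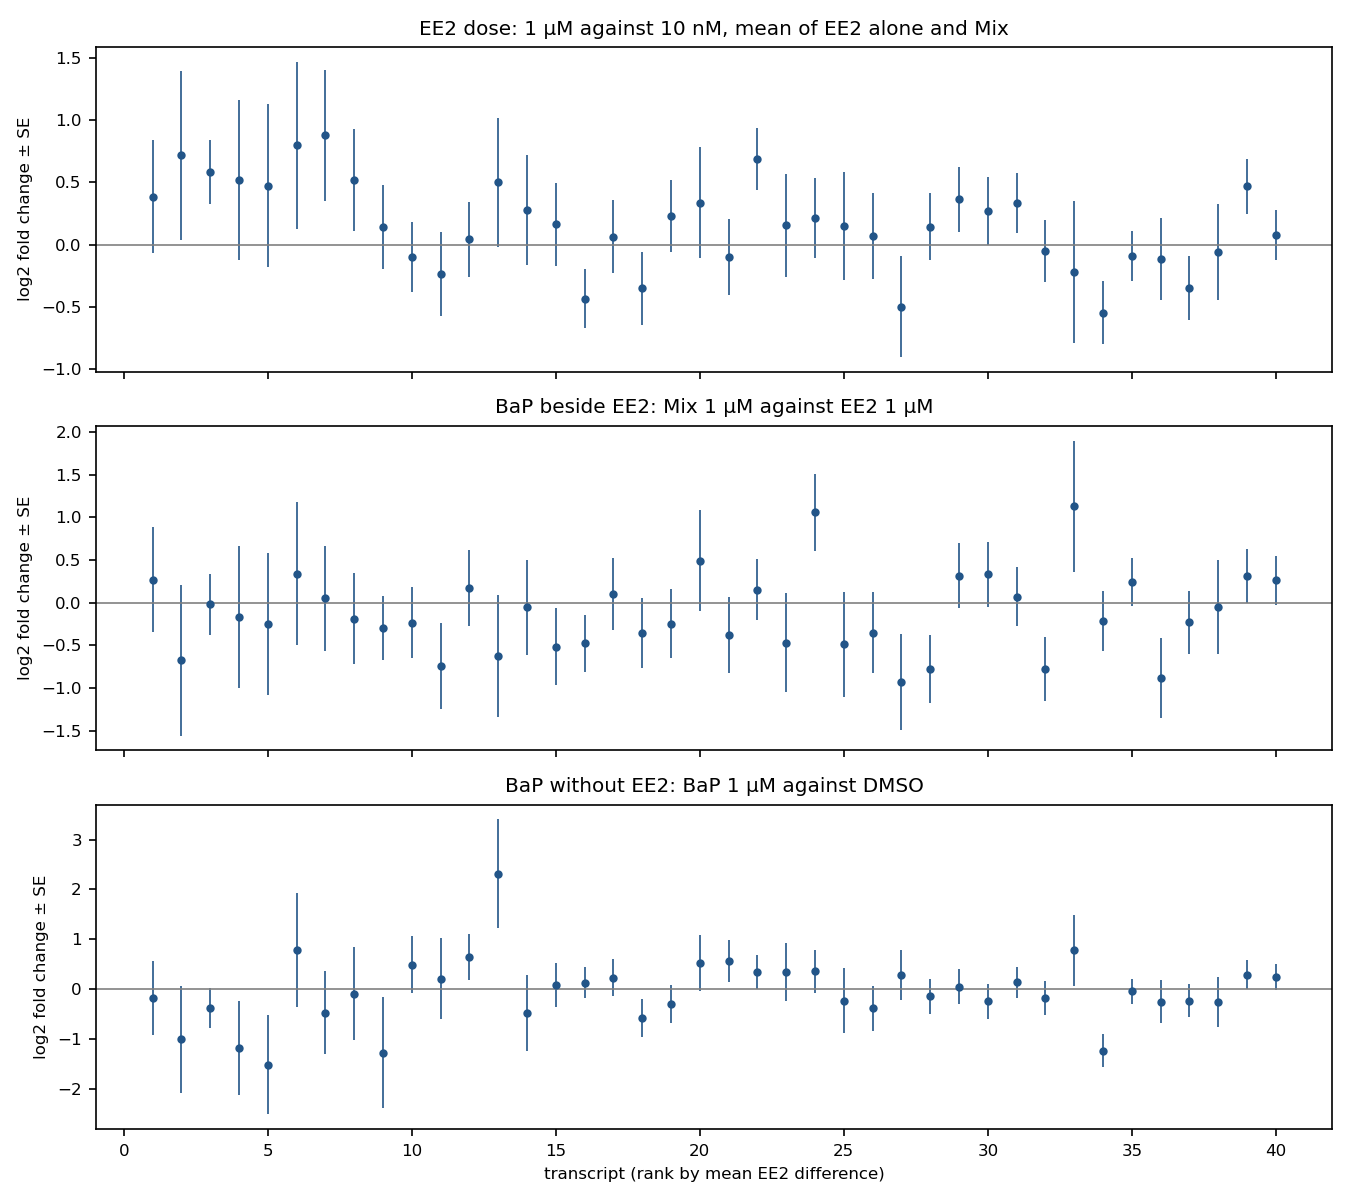
edgeR log2 fold change ± SE (vertical axis) of the 40 transcripts (horizontal axis, by rank) for the dose of EE2 (top), for Mix 1 µM against EE2 1 µM (middle) and for BaP 1 µM against DMSO (bottom). Points lie on both sides of 0 in each panel, and no transcript passed an adjusted p of 0.05 in any of the 3.

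None of the 40 passed for a difference between females and males. For the change with EE2, edgeR and DESeq2 called 0 of the 40 for a difference between 3 females and 5 males, beside 0% of all in edgeR, with 6 at an unadjusted p under 0.05, beside 1.77%. The fitted difference, female minus male, was 3.05 ± 1.01 (SE) for transcript 13, 1.12 ± 0.41 for transcript 3 and −1.82 ± 0.72 for transcript 14, each with an adjusted p of 1. The error of that fit is the spread between slices of the same fish, while sex belongs to the fish, so these SEs are too small for a comparison of 3 with 5 animals. Over fish, the mean log2 difference with EE2 for transcript 13 was 3.08 ± 2.40 (SD, n = 3) in females and 1.53 ± 1.14 (SD, n = 5) in males, and for transcript 14 it was 1.44 ± 1.03 and 2.30 ± 1.48, both with overlap. For transcript 3 it was 5.30 ± 0.62 (SD, n = 3) in females and 4.25 ± 0.92 (SD, n = 5) in males. Single fish lay at 4.59 to 5.75 in females and at 2.84 to 5.24 in males, which overlap. For transcript 2 the mean was 5.82 ± 3.67 in females and 5.54 ± 3.19 in males, also with overlap. In DMSO slices alone, 32 of the 40 had counts enough for a test, and 0 were called by edgeR or DESeq2, beside 0% of 16813 transcripts in edgeR; at an unadjusted p under 0.05 it was 0 of 32 as well, beside 2.01%.

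In DMSO, transcript 1 lay at 0.171, 0.529 and 1.34 CPM in the 3 females and at 0 to 0.355 CPM with a median of 0.0514 in the 5 males, which overlap. That male median is the slice of fish 2, with 3 counts and a low scaling factor. The female minus male log2 fold change was 2.31 ± 1.10 (SE) with an unadjusted edgeR p of 0.0600. Transcript 4 lay at 0.326, 2.43 and 4.13 CPM in the females and at 0.0224 to 2.13 CPM with a median of 0.198 in the males, a difference of 1.65 ± 1.12. Of the 32 tested, 23 were above 0 in this contrast, 8 of the 9 among transcripts 1 to 15 and 15 of the 23 among transcripts 16 to 40. Over all transcripts tested the median was −0.01, and the share above 0 was not counted. Transcripts that rise and fall together, such as 4 and 5, are not separate evidence, so these counts are a description. With 3 females the comparison has little precision: 2 SE for transcript 1 was larger than 2 on the log2 scale.

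The transcripts differed in length. Among transcripts 1 to 15, 5 (33.3%) had a coding length of 4000 bases or more, namely transcripts 4 (4926), 5 (4971), 7 (5112), 8 (4764) and 11 (4485). Among transcripts 16 to 40 it was 1 (4%), and among all 22100 it was 4.15%. Long transcripts gather more counts at a given number of molecules, and the limit of 1 CPM was not scaled by length. Per kilobase, transcript 7 moved from 0.0373 to 1.51 CPM and transcript 8 from 0.0180 to 0.483 CPM, while the short transcript 9 moved from 0.0225 to 6.58 CPM.

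Transcripts 4 and 5, close in length, kept nearly the same ratio to each other. In 30 slices with at least 20 counts of both, the counts of transcript 4 over those of transcript 5 were 1.11 to 1.92, with a median of 1.38, while the level of transcript 4 went from 0.629 to 240 CPM. The ratio of transcript 4 to transcript 7 spanned 2.004 to 7.50 in 22 slices, and that to transcript 2 spanned 0.0802 to 6.45 in 30 slices. For transcripts 4, 5 and 7 the column of unmapped mates held 0.0439, 0.0490 and 0.0254 per mapped segment, against a median of 0.278 over all transcripts with at least 100 counts. If these transcripts have near-identical copies, their reads could have been divided between them, and their separate levels are then uncertain; without sequences this was not tested.

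As a set for comparison, 40 transcripts were taken by the same rule among those already at 1 CPM or more without EE2. Their median log2 fold change with dose over EE2 alone and Mix was 0.28, with 34 of 40 above 0, against 0.15 and 27 of 40 for the transcripts described here. In edgeR's test of the EE2 change between fish, 12 of those 40 were called, against 4 of the 40 described here. The difference between the 2 sets was not tested. The opposite pattern was smaller in size. By the mirrored rule, 27 transcripts lay at 1 CPM or more without EE2 and under 1 CPM with it, and were lower with it in at least 7 of 8 fish, with the largest mean log2 difference at −1.31. Of these 27, 2 were lower by 1 or more on the log2 scale and 0 by 1.5 or more, while of the 40 described here 19 were higher by 1 or more and 15 by 1.5 or more.

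The 4 libraries left out of the choice were compared with the other slices of their fish, which the choice did use, so the counts are in large part fixed by it and are a description. The DMSO slice of fish 2 was below the mean of that fish's slices with EE2 for 40 of 40 transcripts, the 10 nM BaP slice of fish 6 for 36 of 40 and the 1 µM BaP slice of fish 7 for 35 of 40. Over all transcripts under 1 CPM without EE2 the same held for 63.4%, 63.4% and 47.5%. The 1 µM Mix slice of fish 8 was above the mean of that fish's DMSO and 10 nM BaP slices for 18 of 40. Among transcripts 1 to 15 it was 10, and among all transcripts under 1 CPM without EE2 it was 13.3%. The percentages here leave out transcripts with no count at all. Each of these libraries lay low over all transcripts, with median log2 differences of −0.71 to −0.26, in the direction that lowers the count for Mix and raises it for the other 3; the part of this shift in the counts was not tested.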

How the data were processed

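Polyadenylated RNA of 47 liver slices was sequenced by the submitters. FastQC 0.11.5, HISAT2 2.1.0 and SAMtools 1.4.1 were used, per the submitters' processing notes. Genome build, aligner options and strand handling: not given in the sources used here. The deposited files hold raw counts per transcript, with no normalization by the authors, in the column layout of an alignment index summary (name, length, mapped segments, unmapped segments), in which each mate of a pair adds 1 count. A row that names no transcript, with 41.8% to 57.8% of the segments of a library, was left out. Of the transcript lengths, 99.99% are multiples of 3, and they are called coding lengths.

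CPM was computed from the mapped total of each library. Tests used edgeR 4.0.16 in R 4.3.3 (quasi-likelihood, TMM factors, minimum count 10 and minimum total 15, fish as a block except in the DMSO-only contrast), with Benjamini-Hochberg adjustment and a threshold of 0.05, and were tested on simulated data; DESeq2 1.42.0 was an alternative. Same-numbered slices share sex, body weight and liver weight in the labels, and their deviations from group means correlated by 0.667 on average, against −0.0994 between different fish; the lowest value within a fish was −0.097 with all libraries and 0.424 without the 4 with low scaling factors. Which other alternatives were run is given with their effect at the end. No 2 libraries held identical counts. The SE of an edgeR log2 fold change was taken as its absolute value over the square root of the quasi-likelihood F statistic.

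The members and lists were chosen with earlier results of these data known. Named by identifier are the member with the largest mean difference and the one with the highest mean CPM with EE2; the 5 members highest in each of these measures are described in full; none passed a test that was independent of the choice. Lists of gene names (yolk and egg envelope, estrogen receptors, protein export, aryl hydrocarbon receptor targets, liver cell types) could not be applied.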

Additional observations from a re-analysis of the deposited data

Results flagged for a closer look

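The value of transcript 1 in the 1 µM BaP slice of fish 3 stood apart from its group, at 0.977 on the log2(CPM + 0.1) scale, while the other 6 slices lay between −3.32 and −1.72 with a median of −2.42. The gap to the nearest of them was 0.626 of the whole range. Chance alone gives such a gap in about 5% of groups, and 56 sets of values were examined, for transcripts 1 to 7 the levels in each treatment group and the differences over the 8 fish, of which 1 had such a gap. The DMSO and 10 nM BaP slices of the same fish were also the highest of their groups for transcript 1, at 1.34 and 0.828 CPM.

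For 4 transcripts the change with EE2 passed edgeR's quasi-likelihood test for a difference between fish, with Benjamini-Hochberg adjustment over all transcripts. The differences per fish are values that the choice used, and the test was added after they were seen, so it is no independent evidence. The adjusted p was 0.0001763 for transcript 2, 0.008141 for transcript 4, 0.002705 for transcript 5 and 0.02151 for transcript 6. With 1 fish left out, the highest adjusted p was 0.0107 for transcript 2, 0.205 for transcript 4, 0.0919 for transcript 5 and 0.4995 for transcript 6.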

How the results depend on the processing

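The fish block decided many calls in the contrasts used for the choice. With no replicate block, 5 members instead of 13 passed at 10 nM EE2 against DMSO. At 1 µM EE2 against DMSO it was 6 instead of 16. For Mix against BaP it was 4 instead of 14 at 10 nM each and 6 instead of 15 at 1 µM each. Leaving out each fish in turn gave 10 to 13, 14 to 17, 10 to 14 and 10 to 14. A fit without the block counts differences between fish as part of the spread, and the part of this in the lower numbers was not tested. Shares of all transcripts under these settings are not given here.

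In the test between fish, DESeq2 called 10 members and the fit without the 4 libraries 2, against 4 as reported. Leaving out 1 fish gave 2 to 5. The cause was not tested, and shares of all transcripts under these settings are not given here. For the dose over both EE2 and Mix, transcript 1 turned to −0.016 without the 4 libraries, and with 1 fish left out it ranged from −0.19 to 0.74. With 1 fish left out, transcript 2 ranged from 0.25 to 1.17, transcript 4 from −0.045 to 1.16, transcript 5 from −0.15 to 1.11, transcript 6 from −0.15 to 1.33 and transcript 7 from 0.47 to 1.4998. With no replicate block these dose values were 1.08 for transcript 1, 1.35 for transcript 2, 1.52, 1.55 and 2.101 for transcripts 4, 5 and 6, and 1.32 for transcript 7.

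With a limit of 0.5 CPM in place of 1 CPM, only 14 transcripts met the rule, all of them members, 12 of them among transcripts 1 to 15. Transcripts 2, 4 and 5 were above that limit, with means of 0.571, 0.831 and 0.619 CPM without EE2. Leaving out 1 fish retained 26 to 37 of the 40, with 26 without fish 3, a female. The other settings of the rule retained 33 to 40. In the contrasts that the choice did not use other than the test between fish, 0 members passed under every setting run. At 3 counts a library cannot show levels under 0.0448 to 0.0820 CPM.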
